A study of Mus musculus with 9 samples.

Results

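The lineage transcription factors *Spi1*, *Gfi1*, *Irf8*, *Irf4*, *Irf5*, *Id1*, *Id2*, *Id3* and *Nfe2* were examined by RNA-Seq in H9M acute myeloid leukemia (AML) clones that had been re-isolated from mouse spleens. These genes were taken by name and are 9 of the 55401 genes in each deposited table. Of the 9, 8 had a mean normalized count (reads divided by the authors' size factor) of at least 10 in every comparison and were tested, while *Id3* lay below this limit.

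H9M cells are lineage-depleted mouse bone marrow cells transformed in culture by a retroviral vector for *Meis1* and *Hoxa9*. The cells of all groups also carried 1 vector color code per clone, and were given as a mix of clones with helper bone marrow to lethally irradiated C57Bl6/J mice. Splenocytes positive for the donor and vector markers, with cKit and dim or no CD11b, were then sorted, 1 color code at a time. The pre-malignant group holds 1 library each of 33BC-D, of 38BC-D and of 43BC-D, which came from a single mouse that had not reached terminal leukemia. The de novo expanded group holds the same 3 clones, each from another mouse at the leukemic endpoint, and the stably expanded group holds 1 clone, 34BC-D, from these endpoint mice. The age of the mice was not given in the sources used here. A difference from the pre-malignant group therefore cannot be told apart from a difference in mouse or in time, and the stably expanded libraries are repeats of a single clone. The labels tie each library to a group but not to a clone or mouse, so libraries are numbered 1 to 3 within a group, and p-values measure the spread between these libraries.

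Reads on genes numbered 10379739 to 15551196 per library. *Hoxa9* and *Meis1*, the vector-encoded genes, had 315 to 687 and 535 to 1099 reads per 1000000 reads on genes (CPM) over the 9 libraries, and *Kit*, part of the sort, had 142 to 287 CPM. De novo expanded library 3 stood apart from its group. Its log2 levels over 14040 genes correlated with de novo expanded libraries 1 and 2 at Pearson r = 0.944 and 0.952, and with stably expanded library 1 at 0.980. Results on the de novo expanded group are therefore given with and without this library. Leaving it out also leaves out 1 of the 3 clones of that group.

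PU.1, the product of *Spi1*, is an ETS factor that myeloid progenitors need at a high level, and it works with interferon regulatory factors such as IRF8, which favors monocytes and dendritic cells. GFI1 is a zinc finger repressor that favors granulocytes and is known to hold back monocyte genes. ID proteins bind E proteins and keep them from DNA, and NF-E2 p45, the product of *Nfe2*, pairs with small MAF proteins in megakaryocytes and erythroid cells. In the coordinates of the deposited tables (GRCm38.p6), *Gfi1* lies at chr5:107716657-107726036 on the minus strand, *Irf8* at chr8:120736358-120756694 on the plus strand and *Id2* at chr12:25093799-25097140 on the minus strand.

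RefSeq promoter windows, each holding 250 bases before and 50 bases after a start site on GRCm38.p6, were at hand for *Gfi1*, *Irf8*, *Irf4*, *Irf5*, *Id2* and *Id3*, that is for 6 of the 9 genes. Those of *Irf8*, *Gfi1* and *Id2* are shown, since these 3 genes passed the test at adjusted p in the comparison of stably expanded with pre-malignant clones. Capitals mark matches, on either strand, to the letters searched for GFI1 (AATCANNGC), STAT (TTCNNNGAA) and CEBP (TTGCNNAA).
*Irf8*, chr8:120736108-120736407, plus strand: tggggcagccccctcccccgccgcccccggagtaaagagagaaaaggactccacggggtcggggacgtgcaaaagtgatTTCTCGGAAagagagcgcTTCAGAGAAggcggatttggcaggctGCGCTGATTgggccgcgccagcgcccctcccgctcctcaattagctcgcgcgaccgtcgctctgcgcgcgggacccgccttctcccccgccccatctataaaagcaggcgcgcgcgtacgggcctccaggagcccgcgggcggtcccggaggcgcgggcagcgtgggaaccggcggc
*Gfi1*, chr5:107725756-107726055, minus strand: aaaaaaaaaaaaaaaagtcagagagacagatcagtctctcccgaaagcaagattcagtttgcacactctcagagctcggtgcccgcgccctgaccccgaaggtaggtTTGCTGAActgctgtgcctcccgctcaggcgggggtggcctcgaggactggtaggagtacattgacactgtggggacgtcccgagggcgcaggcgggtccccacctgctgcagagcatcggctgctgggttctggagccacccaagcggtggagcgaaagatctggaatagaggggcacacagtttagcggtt
*Id2*, chr12:25096043-25096342, minus strand: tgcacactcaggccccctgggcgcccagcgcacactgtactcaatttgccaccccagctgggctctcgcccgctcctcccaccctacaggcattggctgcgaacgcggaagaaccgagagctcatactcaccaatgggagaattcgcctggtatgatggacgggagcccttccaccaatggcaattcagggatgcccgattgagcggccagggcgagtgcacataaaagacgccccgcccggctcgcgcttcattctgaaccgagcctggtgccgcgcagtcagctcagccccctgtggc
With the first transcribed base as position 1 and the base before it as position -1, the first *Irf8* window, printed above, held the GFI1 letters from position -127 and the STAT letters from -171 and from -153. A second *Irf8* window (chr8:120738389-120738688) held none of the letters marked here. The GFI1 letters occurred in 3.28% and the STAT letters in 8.30% of all 32851 promoter windows of this length. The first *Gfi1* window held the CEBP letters from position -143, which 10.8% of windows hold, and the second *Gfi1* window held none of the letters marked here. In the *Id2* window none of them was found, but it held the BMP SMAD letters GGCGCC from position -231 (11.9% of windows) and an E-box, CANNTG, from position -196 (72.3% of windows). The PU.1 letters GAGGAAGT, the IRF letters GAAANNGAA and the NF-E2 letters GCTGAGTCA, which include the AP-1 letters TGANTCA, were not in the windows of these 6 genes. Such a match is a run of letters and was not tested for binding.

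Levels were first compared between the genes per exon length, as reads per 1000 exon bases and 1000000 reads (RPKM). In the pre-malignant clones *Irf8* (61.7 ± 17.6 RPKM, mean ± SD, n = 3) and *Spi1* (61.6 ± 8.69) were highest and overlapped each other. *Gfi1* (48.8 ± 4.01), *Nfe2* (38.2 ± 4.17) and *Irf5* (23.7 ± 2.91) followed without overlap between neighbors, and *Id1* (6.27 ± 2.07), *Id2* (2.54 ± 0.19) and *Irf4* (0.21 ± 0.12) were far lower. *Irf8* ran from 43.6 to 78.9 RPKM and so also overlapped *Gfi1* (44.3 to 51.9 RPKM). In pre-malignant library 1 *Irf8* (43.6 RPKM) lay below both *Spi1* (55.2) and *Gfi1* (50.1). In the stably expanded clone the order was *Gfi1* (88.9 ± 20.4 RPKM, n = 3), *Spi1* (70.5 ± 5.58), *Nfe2* (42.3 ± 3.59), *Irf8* (24.8 ± 10.4), *Irf5* (15.8 ± 3.97), *Id1* (7.98 ± 2.27) and *Id2* (6.65 ± 1.87). There *Gfi1* and *Spi1*, *Irf8* and *Irf5*, and *Id1* and *Id2* overlapped their neighbor in this order. By mean, *Irf8* was level with *Spi1* in the pre-malignant clones, and in the stably expanded clone it lay below *Nfe2* without overlap. In the de novo expanded group *Spi1* (58.7 ± 8.13 RPKM), *Gfi1* (50.03 ± 41.3), *Irf8* (41.9 ± 28.6) and *Nfe2* (39.7 ± 1.37) overlapped each other in turn. The highest and lowest of the 9 libraries differed 1.30-fold for *Nfe2* and 1.41-fold for *Spi1*, but 4.84-fold for *Gfi1* and 8.80-fold for *Irf8*.

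**Figure D1:**
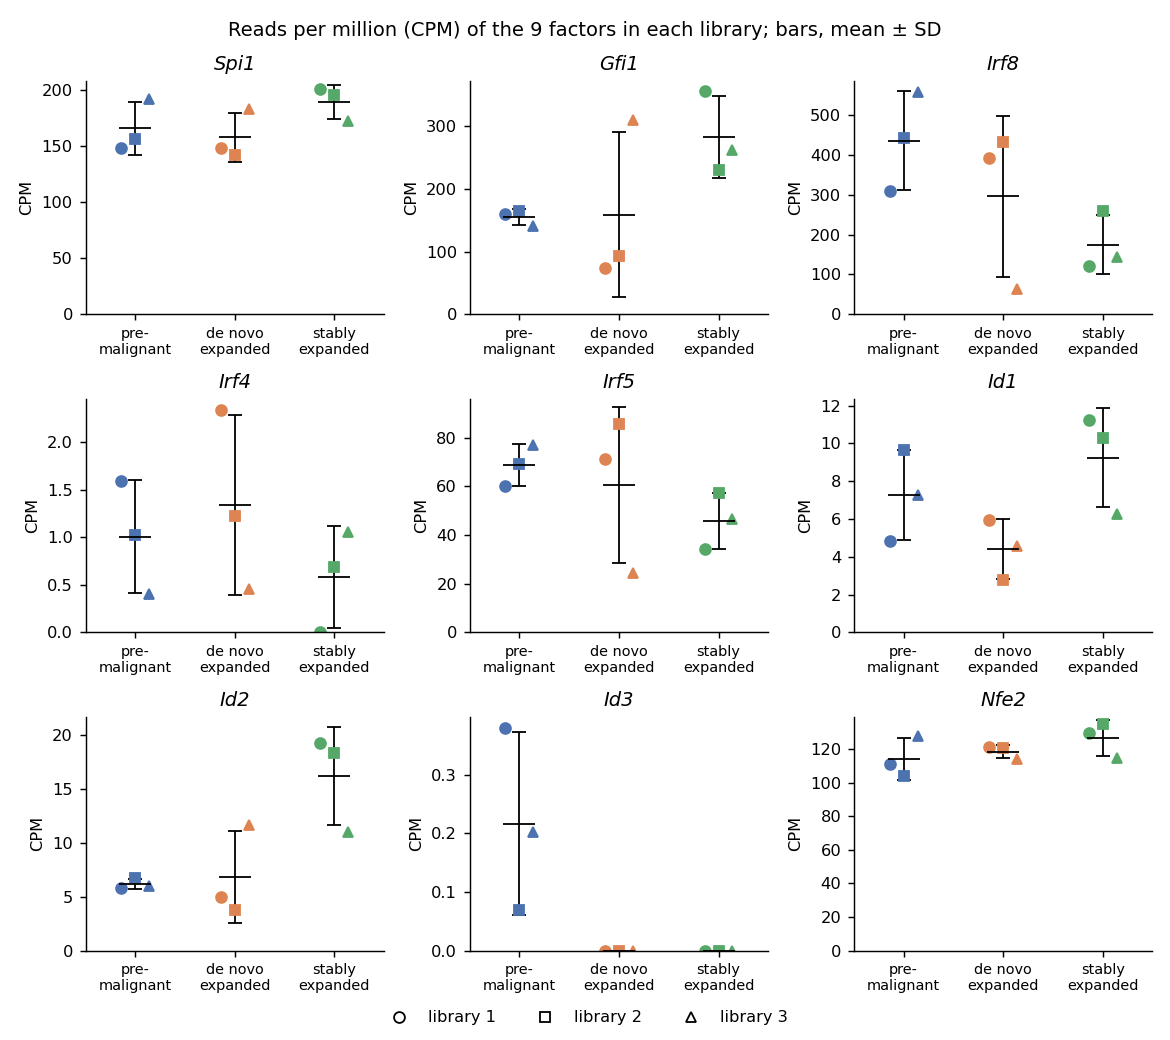
CPM (vertical axes from 0) of the 9 factors in the 3 groups. Symbols are libraries 1 to 3 of a group and bars the mean ± SD (n = 3). De novo expanded library 3 had 63.2 CPM of *Irf8* and 311 CPM of *Gfi1*, while *Spi1* and *Nfe2* stayed between 143 and 201 and between 104 and 135 CPM in all libraries.

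The comparison of stably expanded with pre-malignant libraries asks how a clone expanded early in all recipients differs from minor clones before disease. According to the paper, the stably expanded clone did not dominate in every endpoint mouse. Among the 9 factors, *Id2* rose, *Irf8* fell, and *Gfi1* rose by less than 2-fold. Calls needed an adjusted p under 0.05 in limma and a change of at least 2-fold, and 2 of the 8 tested factors were called, against 2.75% of all 13968 genes tested. At adjusted p alone 3 of the 8 passed, against 7.95% of all genes, and 4 had an unadjusted p under 0.05, against 25.4%. The groups did not overlap for 4 of the 8, against 30.7% of all genes tested. The 2 calls were in opposite directions, and the median log2 fold change of the 8 was 0.18, against 0.0042 over all genes.

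For *Gfi1*, the granulocytic repressor, pre-malignant libraries 1 to 3 had 160, 166 and 141 CPM, and stably expanded libraries 1 to 3 had 356, 231 and 263 CPM. Every stably expanded library lay above every pre-malignant one. Its log2 fold change was 0.85 ± 0.15 (SE; 1.80-fold; limma, adjusted p = 0.0102), below the 2-fold limit. Without stably expanded library 2 it reached that limit, at 1.00 (adjusted p = 0.00378), and over 14 alternative settings its adjusted p ran from 3.78e-06 to 0.422. A gene on the opposite strand, *A430072P03Rik*, overlaps *Gfi1* and had 0.77 to 5.02 CPM.

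*Irf8*, the monocyte and dendritic cell factor, had 308, 441 and 556 CPM before malignancy and 122, 259 and 144 CPM after stable expansion. The groups did not overlap, and stably expanded library 2 came closest to the pre-malignant range. The log2 fold change was -1.35 ± 0.25 (2.55-fold lower; limma, adjusted p = 0.0126). The call was lost without pre-malignant library 2 (-1.32, adjusted p = 0.0571), within a range over 14 settings of 1.10e-05 to 0.409.

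*Irf5*, which activates inflammatory genes below Toll-like receptors, had 60.2, 69.0 and 77.1 CPM in the pre-malignant and 34.1, 57.1 and 46.5 CPM in the stably expanded libraries. All 3 stably expanded values were lower, but the difference did not pass the test (log2 -0.60, 95% interval -0.98 to -0.23, adjusted p = 0.055). The 3′ end of *Irf5* overlaps *Tnpo3* on the opposite strand (112 to 126 CPM). The sources used here do not say whether reads were counted by strand, so reads of the overlap may belong to either gene. *Irf4*, a PU.1 partner of lymphoid and dendritic cells, was near the limit of detection, with 21, 15 and 6 pre-malignant reads and 0, 10 and 11 stably expanded reads (log2 -1.26, interval -3.45 to 0.92).

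Among the ID genes, *Id2* had 5.84, 6.71 and 6.01 CPM in the pre-malignant and 19.3, 18.4 and 11.0 CPM in the stably expanded libraries. The lowest stably expanded value lay above the highest pre-malignant one, with a log2 fold change of 1.34 ± 0.24 (2.54-fold; limma, adjusted p = 0.0114; range over 14 settings 4.98e-05 to 0.395). *Id1*, a classical target of BMP signaling, had 4.86, 9.65 and 7.30 against 11.2, 10.3 and 6.26 CPM. Its groups overlapped and it was not called (log2 0.36, interval -0.32 to 1.04). *Id3* had 5, 1 and 3 pre-malignant reads and 0 in each of the other 6 libraries, where a count of 0 allows up to 3 reads, so no fold change is given.

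*Spi1* had 149, 157 and 193 CPM in the pre-malignant and 201, 196 and 173 CPM in the stably expanded libraries. The groups overlapped, and the difference in log2 level lay between -0.04 and 0.45 (95% interval; estimate 0.20, adjusted p = 0.285). *Nfe2* had 111, 104 and 128 against 130, 135 and 115 CPM, again with overlap (log2 0.15, interval -0.08 to 0.39, adjusted p = 0.407).

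The calls of both *Id2* and *Irf8* were lost in 2 settings. One fit of all 9 libraries, in which the 3 groups share 1 estimate of spread, gave adjusted p = 0.133 for *Id2*, 0.279 for *Irf8* and 0.326 for *Gfi1* at nearly the same fold changes. The share of reads that fell on receptor genes for odors and pheromones (olfactory and vomeronasal), which hematopoietic cells should not use, was 0.00833% to 0.0186% in the pre-malignant and 0.00219% to 0.00813% in the stably expanded libraries, and with this share as a covariate the adjusted p was 0.395, 0.409 and 0.422. The share did not overlap between these groups, so that fit cannot cleanly tell the covariate apart from the group.

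Markers of other cells were read beside these genes, with every listed marker present in the tables. The summed level of 10 B cell markers was 228 to 277 CPM in the pre-malignant and 87.4 to 109 CPM in the stably expanded libraries, with *Ighm* the largest part (195 to 240 against 68.0 to 83.0 CPM) and the defining marker *Pax5* at or below 4.70 CPM in all libraries. *Cd79b* went the other way (4.66 to 10.1 against 9.73 to 17.8 CPM, with overlap), while the rest of the list was lower on average. The summed level of 8 mature neutrophil markers was 49.0 to 109 and 78.4 to 743 CPM, with the defining marker *Ly6g* at or below 1.08 CPM in every library. Most of it was *S100a8* (25.4 to 53.5 and 36.1 to 277 CPM) and *S100a9* (20.3 to 50.6 and 34.9 to 457 CPM). Both also belong to the list of granulocyte genes followed below. *Cxcr2* was higher in the stably expanded libraries without overlap (1.16 to 2.73 against 4.14 to 6.72 CPM). The summed level of 10 dendritic cell markers was 120 to 149 and 63.6 to 129 CPM, mostly *Flt3*, with *Siglech* at 0 in the stably expanded libraries. The 10 macrophage markers summed to 91.7 to 189 and 175 to 230 CPM, mostly *Vcam1* (12.4 to 100.3 and 77.4 to 141 CPM) and *Adgre1* (74.4 to 99.03 and 80.9 to 93.5 CPM), and *C1qa*, which defines them, stayed at or below 0.39 CPM. Erythroid markers summed to 27.0 to 60.4 CPM in the pre-malignant, 3.85 to 23.3 CPM in the de novo expanded and 6.07 to 36.1 CPM in the stably expanded libraries. Megakaryocyte and platelet markers summed to 1.92 to 3.79 and plasma cell markers to 112 to 158 CPM over the 9 libraries. The 10 T and NK cell markers summed to 7.84 to 14.0 CPM in the pre-malignant and 15.8 to 32.6 CPM in the stably expanded libraries, without overlap. *Nkg7*, a cytotoxic granule gene, was the largest part (5.20 to 11.1 and 14.0 to 31.5 CPM), and the defining T cell marker *Cd3e* stayed at or below 0.54 CPM in all libraries. In such bulk libraries fewer cells of a type and less RNA per cell cannot be told apart, and the part of these markers in the differences of *Irf8*, *Id2* and *Gfi1* was not tested.

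**Figure D2:**
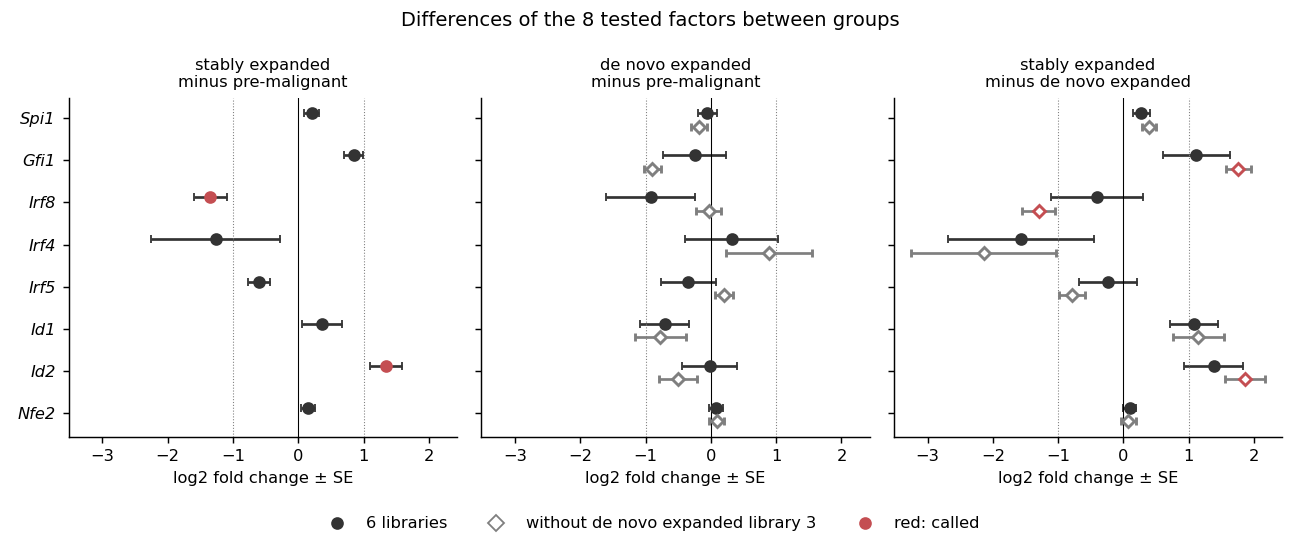
Log2 fold changes ± SE (limma) of the 8 tested factors in the 3 comparisons. Filled circles use 6 libraries, open diamonds leave out de novo expanded library 3, red marks called genes, and dotted lines mark 2-fold. *Irf8* (-1.35) and *Id2* (1.34) were called against pre-malignant clones, and *Gfi1* (1.76), *Id2* (1.86) and *Irf8* (-1.30) against de novo expanded clones only without that library.

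The partners and targets of the factors were followed in 9 lists. Granulocyte genes, the program that GFI1 favors, were the list with the largest share of calls in this comparison. Of 15 tested, 7 rose and none fell, against 1.20% of all genes called higher, and the list's median log2 fold change was 1.81. *Camp*, the cathelicidin of secondary granules, had 6.07, 32.9 and 18.04 CPM in the pre-malignant and 805, 210 and 84.2 CPM in the stably expanded libraries (log2 3.98 ± 0.72, adjusted p = 0.0112). *Cebpe*, the factor that drives secondary granule genes, had 36.3, 33.2 and 28.2 against 139, 72.4 and 107 CPM (log2 1.66 ± 0.21, adjusted p = 0.00346). No library overlapped between the groups for these 2 genes. The other granule genes called were *Ltf* (log2 4.58), *Chil3* (3.61), *Ngp* (3.14), *Fcnb* (3.00) and *Lcn2* (2.54). The primary granule genes *Elane* (0.78), *Ctsg* (0.76), *Prtn3* (0.40) and *Mpo* (0.31) were higher by less than 2-fold and not called. Of the 15 genes 14 had a higher mean, and *Mmp8* had a lower one (-1.06, not called). The stably expanded libraries varied widely among themselves, since *Ngp* had 2605, 1076 and 360 CPM.

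IRF8 and monocyte genes moved the other way by their median. Of 18 tested, 3 fell and none rose, against 1.55% of all genes called lower, with a median log2 fold change of -0.59. A lower mean was found for 14 of the 18 and a higher one for 4, such as *Naaa* (0.66) and *Ly6c2* (0.38), which were not called. *Klf4*, a monocyte transcription factor, had 34.98, 47.6 and 54.4 CPM in the pre-malignant and 5.87, 22.2 and 12.3 CPM in the stably expanded libraries (log2 -1.93 ± 0.37, adjusted p = 0.0136). *Cx3cr1*, the fractalkine receptor of monocytes, and *Ms4a6c* fell by 1.45 and 1.18 on the log2 scale (adjusted p = 0.0305 and 0.0141). *Zeb2*, a zinc finger repressor of mononuclear phagocytes, passed the test at -0.97 (adjusted p = 0.00346) but not the 2-fold limit.

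PU.1 target genes showed calls in both directions. Of 19 tested, 1 rose and 1 fell. Over all genes tested 2.75% were called in this comparison, a share that also applies to the counts of the lists below. *Csf1r*, the macrophage colony-stimulating factor receptor, fell (97.6, 125 and 160 against 29.1, 56.9 and 32.9 CPM; log2 -1.71 ± 0.23, adjusted p = 0.00412). *Itgb2*, the integrin partner of CD11b, passed at 0.90 (adjusted p = 0.00679) below 2-fold, and the median of the list was 0.03. Among 13 PU.1 relatives and cofactors *Cebpe* and *Ets1* rose (*Ets1* log2 1.39 ± 0.26, adjusted p = 0.0126), and *Runx1* passed at -0.70 (adjusted p = 0.00583) without reaching 2-fold.

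Of 11 tested GFI1 partners and repressed genes, *Csf1*, which encodes the ligand of the *Csf1r* receptor, fell (19.7, 19.1 and 27.6 against 4.44, 10.7 and 6.94 CPM; log2 -1.64 ± 0.29, adjusted p = 0.0103) and *Ets1* rose. *Hdac1*, a corepressor subunit, passed at 0.46 (adjusted p = 0.0399) below 2-fold. The 12 tested NF-E2 partners, relatives and targets held 2 calls, both lower. *Bach2*, a repressor of the same bZIP family, fell by 1.92 and the small MAF gene *Maff* fell by 1.49 on the log2 scale (adjusted p = 0.03 and 0.0275). Both were low, at 0.46 to 4.53 CPM over the libraries of these groups.

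In the other 3 lists limma, edgeR and DESeq2 called no gene. These were 6 E proteins and other ID partners (3 at an unadjusted p under 0.05), 15 genes of BMP and TGF-beta input to ID genes (3) and 10 other IRF family members and cofactors (3). Over all genes tested 25.4% had such a p in limma. *Irf1*, an interferon-induced family member, passed at adjusted p = 0.00837 with a log2 fold change of -0.68, and *Lmo2*, a bridge protein of E protein complexes, at 0.0348 with -0.33. The interferon response factors *Irf9* and *Irf7* had -0.71 and -1.14 (adjusted p = 0.0568 and 0.0803), and *Smad4*, the common mediator of BMP and TGF-beta signals, had -0.38 (adjusted p = 0.0738). The lists share *Cebpe*, *Ets1* and *Irf2bp2*, which each count in 2 of them. Of the 16 list genes called in this comparison, 9 kept the call whichever library was left out, among them *Camp*, *Cebpe*, *Csf1*, *Csf1r*, *Ets1*, *Fcnb*, *Lcn2* and *Ngp*, and *Bach2*, *Chil3*, *Cx3cr1*, *Klf4*, *Ltf*, *Maff* and *Ms4a6c* lost it at least once. In 1 fit of all 9 libraries and with the olfactory receptor share as a covariate none of the 16 was called (adjusted p 0.0791 to 0.327 and 0.139 to 0.611), whereas edgeR and DESeq2 called all 16.

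**Figure D3:**
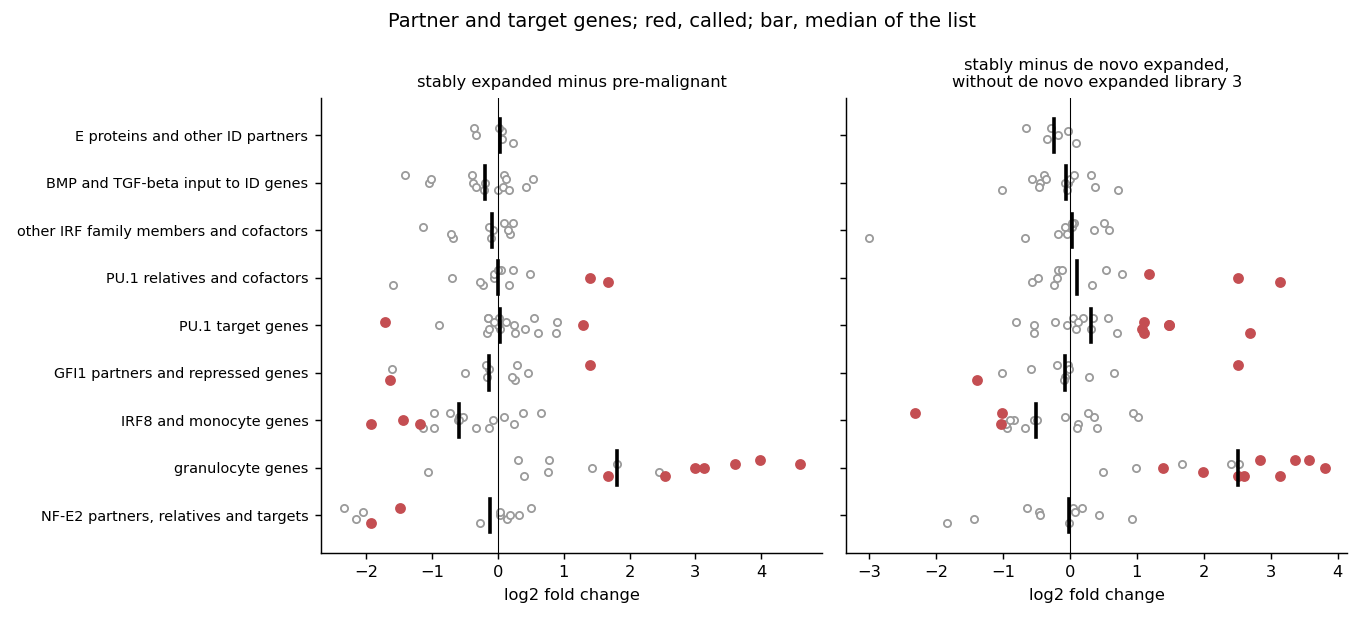
Log2 fold changes of each tested gene in the 9 lists, against pre-malignant clones (left) and, without de novo expanded library 3, against de novo expanded clones (right). Red points were called and bars are list medians. The median of the granulocyte genes lies to the right in both (1.81 and 2.52) and that of the IRF8 and monocyte genes to the left (-0.59 and -0.51).

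The comparison of de novo expanded with pre-malignant clones follows the same 3 clones from before disease to the endpoint, although their libraries could not be paired. None of the 8 tested factors was called by limma, edgeR or DESeq2, and none had an unadjusted p under 0.05 in limma. Over all 14195 genes limma called 0% (1597 genes, or 11.3%, had an unadjusted p under 0.05), edgeR called 0 and DESeq2 42.

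For *Irf8*, *Irf5*, *Gfi1* and *Id2*, library 3 lay far from the other two de novo expanded libraries. *Irf8* had 391, 432 and 63.2 CPM in de novo expanded libraries 1 to 3, against 308 to 556 CPM in the pre-malignant group. Libraries 1 and 2 lay inside the pre-malignant range and library 3 far below it (log2 -0.92 ± 0.68, adjusted p = 0.632; without library 3 -0.03 ± 0.19, adjusted p = 0.939). *Irf5* went the same way, with 71.3, 85.6 and 24.5 CPM (log2 -0.35 ± 0.42, adjusted p = 0.789; without library 3 0.20, adjusted p = 0.431). Library 3 also had 77.8 CPM of the summed B cell markers (227 and 165 in libraries 1 and 2), 102 CPM of the dendritic cell markers (277 and 338), 244 CPM of the macrophage markers (61.4 and 95.2), 105 CPM of the mature neutrophil markers (47.4 and 58.6) and 74.0 CPM of the T and NK cell markers (2.42 and 4.95), of which *Nkg7* made 70.7 CPM. *Flt3* made 73.3 CPM of its dendritic cell sum (222 and 296 in libraries 1 and 2) and *Vcam1* 167 CPM of its macrophage sum (1.17 and 6.75). *Cd163* of the macrophage list went the other way, with 0.78 CPM (7.68 and 8.87). The part of these markers in the differences was not tested.

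*Gfi1* had 73.6, 93.6 and 311 CPM, against 141 to 166 CPM in the pre-malignant group. Libraries 1 and 2 lay below every pre-malignant library and library 3 above. The log2 fold change was -0.25 ± 0.49 (adjusted p = 0.879) with all libraries. Without library 3 *Gfi1* fell by 0.89 ± 0.13 on the log2 scale, or 1.86-fold (limma, adjusted p = 0.00503), below the 2-fold limit; over 14 settings the adjusted p ran from 0.00503 to 0.999. In that fit of 2 against 3 libraries limma called 1.5% of all genes and passed 4.35% at adjusted p alone, and no other tested factor passed. That fit also set 2 clones against 3, so that clone and time cannot be told apart in it.

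*Id2* had 5.01, 3.73 and 11.7 CPM against 5.84 to 6.71 CPM, and again library 3 lay above and libraries 1 and 2 below the pre-malignant range (log2 -0.02 ± 0.42, adjusted p = 0.992). *Id1* had 5.92, 2.77 and 4.57 against 4.86 to 9.65 CPM (log2 -0.70, interval -1.58 to 0.18). *Spi1*, with 148, 143 and 183 CPM, and *Nfe2*, with 121, 121 and 114 CPM, overlapped the pre-malignant range. Their log2 fold changes lay between -0.40 and 0.29 for *Spi1* and between -0.18 and 0.33 for *Nfe2* (95% intervals), and *Irf4* had 28, 19 and 7 reads (log2 0.32, interval -1.35 to 1.99).

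In the 9 lists limma and edgeR called no gene in this comparison, and DESeq2 called 1 granulocyte gene and 1 gene of the NF-E2 list. At an unadjusted p under 0.05 limma had 5 of 18 IRF8 and monocyte genes, 3 of 19 PU.1 targets, 3 of 12 genes of the NF-E2 list, 3 of 11 other IRF family genes and 0 to 2 genes in each of the other lists. Over all genes tested this share was 11.3%. The smallest p of the IRF list was that of *Irf1* (768.6 ± 55.1 against 1216 ± 125 normalized counts; log2 -0.66 ± 0.12, adjusted p = 0.32). In the IRF8 and monocyte list *Cd74*, the MHC class II chaperone, had log2 -1.30 (adjusted p = 0.399) and *Klf4* -1.72 (adjusted p = 0.414), and among PU.1 targets *Csf1r* had -1.69 (adjusted p = 0.417). *Egr1*, an early response gene on the list of GFI1 partners and repressed genes, had -1.42 (adjusted p = 0.372).

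Without de novo expanded library 3, limma called 11 list genes, 2 higher and 9 lower, and those named here were chosen after their values were seen. In this fit 1 of the 3 clones was in the pre-malignant group only. Of 15 granulocyte genes 1 was called higher and 3 lower, with a median log2 fold change of -0.43, against 1.5% of all genes called. The primary granule genes *Elane* (neutrophil elastase) and *Mpo* (myeloperoxidase) fell by 2.04 and 1.66 on the log2 scale (adjusted p = 0.000483 and 0.00103). *Elane* had 148 and 267 CPM in de novo expanded libraries 1 and 2, 2148 CPM in library 3 and 803 to 833 CPM in the pre-malignant group. *Cebpe*, *Cebpd*, *Ets1* and *Csf3r*, the granulocyte colony-stimulating factor receptor, also fell (log2 -1.45, -1.22, -1.10 and -1.22), as did *Alas2*, *Egr1* and *Irf7* (log2 -2.52, -1.01 and -1.08). *Alas2* is also 1 of the erythroid markers. These summed to 7.18 and 23.3 CPM in de novo expanded libraries 1 and 2 and to 27.0 to 60.4 CPM in the pre-malignant group, and their part was not tested. The granulocyte gene *Chil3* went the other way and rose (log2 1.95, adjusted p = 0.0446), while the secondary granule genes *Ltf* and *Camp* had 2.08 and 0.64 without passing (adjusted p = 0.114 and 0.509). Of 18 IRF8 and monocyte genes 1 was called higher and none lower, although 10 had a lower mean and the median was -0.18. The call was the monocyte chemokine receptor gene *Ccr2* (log2 1.35, adjusted p = 0.0011). In the same list *Ly6c2*, a surface marker of inflammatory monocytes, passed at -0.55 (adjusted p = 0.0411) below 2-fold, and *Klf4* had -0.95 (adjusted p = 0.0694).

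The comparison of stably with de novo expanded clones sets both kinds of leukemic clone side by side. No factor was called by limma, edgeR or DESeq2 with all 6 libraries, where limma called 0.00727% of 13758 genes (664 genes, or 4.83%, at an unadjusted p under 0.05), and 2 of the 8 had an unadjusted p under 0.05. These were *Id2* (19.3, 18.4 and 11.0 against 5.01, 3.73 and 11.7 CPM; log2 1.38 ± 0.45, adjusted p = 0.891) and *Id1* (11.2, 10.3 and 6.26 against 5.92, 2.77 and 4.57 CPM; log2 1.08 ± 0.36, adjusted p = 0.891). *Id1* was the 1 of the 8 whose groups did not overlap, which held for 9.61% of all genes tested.

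De novo expanded library 3 lay inside the stably expanded range for 4 of the 8 tested factors and below it for the other 4. Its 311 CPM of *Gfi1*, 11.7 CPM of *Id2*, 183 CPM of *Spi1* and 0.46 CPM of *Irf4* were inside. Its 63.2 CPM of *Irf8*, 24.5 CPM of *Irf5* and 4.57 CPM of *Id1* lay below the lowest stably expanded libraries (122, 34.1 and 6.26 CPM), and its 114 CPM of *Nfe2* was just under the lowest value of 115 CPM. With all libraries *Gfi1* had a log2 fold change of 1.12 ± 0.51 (adjusted p = 0.891), *Irf8* of -0.41 ± 0.70 (adjusted p = 0.956) and *Irf5* of -0.23 ± 0.45 (adjusted p = 0.957).

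Without this library limma called 3 of the 8 factors, against 3.69% of all genes tested, and 4 passed at adjusted p alone, against 6.69%. *Gfi1* rose by 1.76 ± 0.19 (3.39-fold, adjusted p = 0.00174), *Id2* rose by 1.86 ± 0.30 (3.63-fold, adjusted p = 0.00891) and *Irf8* fell by 1.30 ± 0.25 (2.46-fold, adjusted p = 0.0175) on the log2 scale. Several summed marker levels differed between the same libraries. Dendritic cell markers summed to 277 and 338 CPM in de novo expanded libraries 1 and 2 and to 63.6 to 129 CPM in the stably expanded ones, B cell markers to 227 and 165 against 87.4 to 109 CPM, and macrophage markers to 61.4 and 95.2 against 175 to 230 CPM. *Flt3* made most of the dendritic cell sum (222 and 296 against 39.9 to 100 CPM), with *Siglech* at or below 0.25 CPM. Of the macrophage markers *Vcam1* had 1.17 and 6.75 against 77.4 to 141 CPM, and *C1qa* stayed at or below 0.39 CPM. *Cd163* went the other way (7.68 and 8.87 against 0.91 to 3.66 CPM). Mature neutrophil markers summed to 47.4 and 58.6 against 78.4 to 743 CPM, and T and NK cell markers to 2.42 and 4.95 against 15.8 to 32.6 CPM. Their part in the changes of *Gfi1*, *Id2* and *Irf8* was not tested. *Irf5* passed at -0.78 ± 0.20 (adjusted p = 0.0494; over 14 settings 0.0494 to 1.00) without reaching 2-fold. The adjusted p of *Gfi1*, *Id2* and *Irf8* ran up to 1.00 over the 14 settings, and leaving out any other library gave no call for the 8 factors. *Spi1* had 0.28 (interval -0.03 to 0.58) with all libraries and 0.40 (adjusted p = 0.0625) without library 3, and *Nfe2* had 0.10 (interval -0.13 to 0.33).

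Calls were also absent from the 9 lists in limma, edgeR and DESeq2, with 8 of 14 granulocyte genes and 4 of 19 PU.1 targets at an unadjusted p under 0.05 in limma. Over all genes tested this share was 4.83%. All 14 granulocyte genes had a higher mean in the stably expanded clone, with a median log2 fold change of 2.00, such as *Ngp* (2.88, adjusted p = 0.891), *Camp* (2.69) and *Lcn2* (1.88). Without de novo expanded library 3 limma called 9 of these 14 higher and none lower, against 3.69% of all genes called in this fit. Among them *Elane*, *Cebpe* and *Mpo*, named after their values were seen, had log2 fold changes of 2.84, 3.14 and 1.99 (adjusted p = 0.000612, 0.00126 and 0.00126). The same fit called 6 of 19 PU.1 targets higher, *Itgam* (CD11b, used in the sort, log2 1.11) and *Csf3r* (1.48) among them. Of these 19 targets 5 had a lower mean, such as *Csf1r* (-0.81, not called). Of 18 IRF8 and monocyte genes 3 were called lower, with *Ccr2* at -2.31 (adjusted p = 0.0141). In that list 11 genes had a lower and 7 a higher mean. Among the latter *Ly6c2* passed at 0.95 (limma, adjusted p = 0.00544) below 2-fold.

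**Figure D4:**
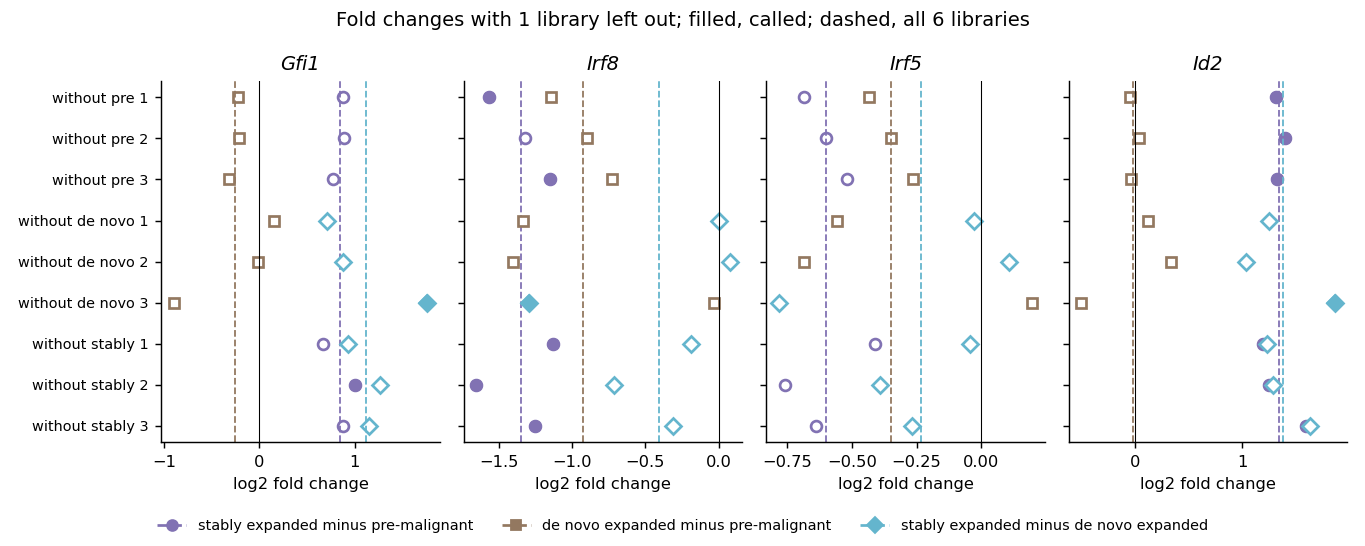
Log2 fold changes of *Gfi1*, *Irf8*, *Irf5* and *Id2* (horizontal axes) with 1 library left out at a time (rows), in 3 comparisons by symbol. Filled symbols were called and dashed lines are the values with all 6 libraries. Leaving out de novo expanded library 3 moved *Gfi1* against de novo expanded clones from 1.12 to 1.76 and *Irf8* from -0.41 to -1.30.

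The balance between *Gfi1* and *Irf8* differed between libraries. The ratio of *Gfi1* to *Irf8* in RPKM was 1.15, 0.83 and 0.56 for pre-malignant libraries 1 to 3, 0.42, 0.48 and 10.9 for the de novo expanded ones and 6.47, 1.97 and 4.05 for the stably expanded ones. *Gfi1* exceeded *Irf8* in all 3 stably expanded libraries, in 1 pre-malignant library and in de novo expanded library 3. Over the 9 libraries Pearson r of the log2 levels of *Gfi1* and *Irf8* was -0.80 (Spearman rho -0.78), and it was -0.80 over the 8 libraries without de novo expanded library 3. *Irf8* and *Irf5* followed each other (r = 0.97, and 0.95 without that library), as did *Gfi1* and *Id2* (r = 0.87 and 0.88), while *Spi1* and *Irf8* had r = -0.46. These values only describe 9 libraries that fall into 3 groups, of which 1 shares a mouse and 1 a clone.

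**Figure D5:**
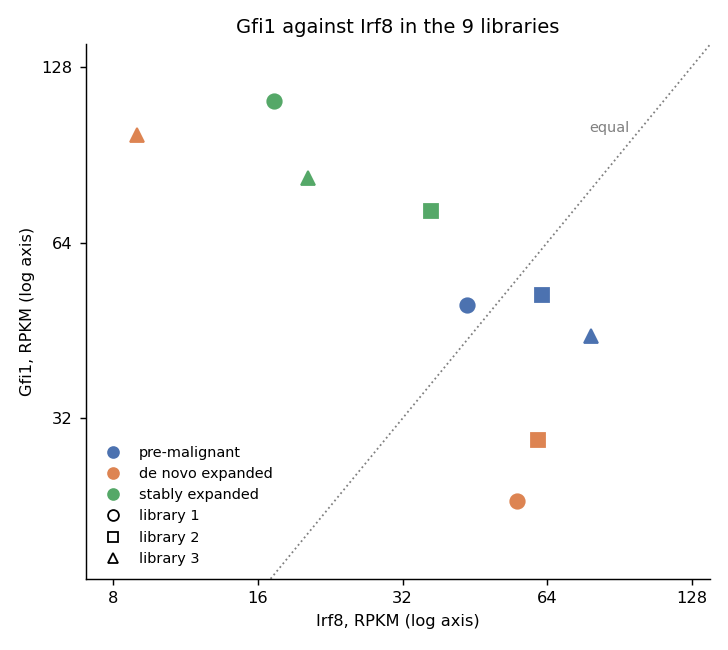
*Gfi1* against *Irf8* in RPKM (log axes) in each library, by group (color) and library number (symbol); the dotted line marks equal levels. Stably expanded libraries and de novo expanded library 3 lie above the line at 1.97 to 10.9 times more *Gfi1* than *Irf8*, pre-malignant libraries lie near it at 0.56 to 1.15, and de novo expanded libraries 1 and 2 lie below it at 0.42 and 0.48.

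The genes most alike in pattern were sought among 13960 genes by Pearson r of log2(CPM + 1) over the same 9 libraries. For *Gfi1* these were *Tnfrsf21* and *Tmx4* (r = 0.995 each), for *Irf8* *Il6st* (0.994) and *Plk3* (0.993), and for *Irf5* *Il17ra* (0.991) and *Ank* (0.987). *Id2* was followed most closely by *Osbp* and *Rps6ka1* (0.976 each), *Id1* by *Mocos* (0.948) and *Cmip* (0.919), and *Spi1* by *Tnfrsf1b* (0.961) and *Ncoa4* (0.952). For *Nfe2* the nearest were *Rbm8a2* (0.954) and *Galnt1* (0.953), and for *Irf4*, with few reads, *Snord70* (0.981) and *1110038B12Rik* (0.963). With 9 points and this many genes such values are a description of likeness.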

How the data were processed

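RNA-Seq libraries (3 per group) were made by the study from sorted cells with a SMARTer stranded kit for total RNA. According to the paper and the submitters' processing notes, reads were trimmed (Trim Galore 0.6.4), aligned to GRCm38.p6 with GENCODE annotation (STAR 2.6.1d) and counted (featureCounts 1.6.4). The authors deposited a signal per gene and library, the read count divided by a DESeq2 size factor, in 3 pairwise tables with outlier replacement and independent filtering off. Their fold change, p-value and Wald columns were not used. Dividing by the value of 1 read returned whole reads (tolerance 0.05 reads) for 99.99% or more of the values above 0, and CPM and RPKM were computed from these reads and the deposited exon lengths. A floor of 3 reads covers counting error only.

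The main test was limma 3.58.1 (R 4.3.3) and its trended empirical Bayes step, run on log2(normalized count + 1) for genes with a mean of at least 10 over 6 libraries, two-sided, with Benjamini-Hochberg adjustment. Fold changes on this scale understate changes of low genes. On simulated data with 200 genes changed 4-fold it recovered 173 of 198 tested genes for stably expanded against pre-malignant (13968 genes, 7 false calls), 147 of 197 for de novo expanded against pre-malignant (14195 genes, 11) and 144 of 197 for stably against de novo expanded (13758 genes, 15). On the recovered reads edgeR 4.0.16 and DESeq2 1.42.0 called 382 and 393, 0 and 42, and 1 and 29 genes in these comparisons. Also tried were a pseudocount of 0.1 or 5, all genes without the filter, quantile normalization, 1 fit of all 9 libraries, no fold limit, and each library left out in turn. The olfactory receptor share as a covariate was chosen after seeing the data.

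The 9 genes, the 9 partner and target lists and the marker lists were chosen with earlier results of these data known. Genes named, beside all 9 factors, were taken from the called genes and the 3 genes with the smallest p-values of each list and comparison, and the 2 most alike genes per factor. Results on a few other genes are not reported here.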

Additional observations from a re-analysis of the deposited data

How the results depend on the processing

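Against pre-malignant clones, the 2 calls of *Id2* and *Irf8* in the stably expanded clone became 0 in 1 fit of all 9 libraries and 0 with the olfactory receptor share as a covariate, 1 to 3 with a library left out, and 3 with no fold limit. Calls over all genes were 384, but 6 in 1 fit of all 9 libraries, 5 with the olfactory covariate, 1110 with no fold limit and 206 to 452 with a library left out. With the olfactory covariate *Spi1* turned to -0.0595, *Irf4* to 1.03 and *Nfe2* to -0.0475. De novo expanded against pre-malignant, calls over all genes were 0, but 42 with DESeq2, 5 with no filter, 5 in 1 fit of all 9 libraries and 0 to 214 with a library left out. No factor was called there under any setting, and fold changes near 0 turned sign. *Gfi1* turned to 0.0289 with edgeR and 0.0636 with DESeq2, and *Id2* to 0.131, 0.164 and, with the olfactory covariate, 0.0394. *Nfe2* turned to -0.042 with that covariate. With a library left out *Spi1* ran from -0.18 to 0.0577, *Gfi1* from -0.89 to 0.16, *Irf4* from -0.19 to 0.89, *Irf5* from -0.69 to 0.20 and *Id2* from -0.50 to 0.33. Stably against de novo expanded, calls over all genes were 1, but 29 with DESeq2, 2 with no filter, 2 in 1 fit of all 9 libraries, 0 with the olfactory covariate and 0 to 508 with a library left out, and calls among the factors 0 to 3. There *Irf8* ran from -1.30 to 0.0754 and *Irf5* from -0.78 to 0.11. The highest counts in both leukemic comparisons came without de novo expanded library 3. The cause was not tested. No paired analysis was possible because the columns carry no replicate number, clone or mouse that ties libraries of different groups.

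Depth limits *Irf4* and *Id3*, with at most 28 and 5 reads per library. All groups hold 3 libraries, the pre-malignant ones from 1 mouse and the stably expanded ones from 1 clone, so that mouse, time and clone cannot be told apart from the group.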
